A study of Mus musculus with 6 samples.

Results

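The 10 genes described here encode the enzymes that hydroxylate and crosslink collagen: the prolyl 4-hydroxylase catalytic subunits P4ha1, P4ha2 and P4ha3, the lysyl hydroxylases Plod1, Plod2 and Plod3, and the lysyl oxidases Lox, Loxl1, Loxl2 and Loxl3. They were followed in abdominal adipose tissue of C57BL/6 mice on 6 one-colour Agilent arrays, 3 labelled Sham and 3 labelled DJB. The set was chosen on the measured difference of P4ha3 between the same arrays, so the values of P4ha3 are given as a description without a test, and the other 9 genes were added by enzyme family. The members were all non-control probes named by one of the 10 gene symbols, which gave 13 probes of 150305. The whole series had 18325 genes with a probe that could be tested.

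All mice were put on high-fat feed at the age of 6 weeks, kept on it for 12 weeks, and described by the labels as diabetic before they were randomised. In the DJB group, a duodenal-jejunal bypass was made with a biliopancreatic limb of 5 cm and a Roux limb of 4 cm under buprenorphine at 0.15 mg/kg. In the Sham group, the abdomen was opened and the intestine was cut and closed again in place. Which abdominal fat depot was taken, and how long after surgery, is not given in the labels, and no lean or unoperated group entered the comparison. The arrays lay on 2 slides, and each had 62.6% to 68.8% of its non-control probes well above background and no saturated spot. The 75th percentile of intensity, which set the scale, was 175.8 to 183.7 in Sham and 132.0 to 165.3 in DJB. The labels also do not say that the arrays of a group came from separate animals, so p-values measure only the spread between these samples.

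Prolyl 4-hydroxylases convert proline in nascent collagen chains to 4-hydroxyproline inside the endoplasmic reticulum, which gives the collagen triple helix its thermal stability. Each enzyme joins catalytic alpha subunits, the products of the P4ha genes, to the beta subunit protein disulfide isomerase, and needs iron, oxygen, 2-oxoglutarate and ascorbate. Lysyl hydroxylases act on lysine in the same compartment and prepare sites for sugars and for crosslinks, and lysyl oxidases work outside the cell, where they oxidise lysine and hydroxylysine so that fibres of collagen and elastin become covalently joined. Adipose tissue surrounds its fat cells with such a collagen matrix, and more of it is laid down in obesity.

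P4ha3 was represented by a pair of probes that gave very different signals. Both sequences are shown because the level of P4ha3 rests on which of them is read. In each sequence the capitals mark the first stop triplet met in each of the 3 forward reading frames.
A_52_P220912: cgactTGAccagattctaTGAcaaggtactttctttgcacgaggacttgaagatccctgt
CUST_57796_PI435794180, first 30 of 60 bases: ggggatatcatgTGAcgacTGActttTAAa
The first is named P4ha3 in the files, begins at base 195 of the transcript and lies at chr7:107434225-107441133 (mm9, plus strand), a span of 6909 bases for 60 bases of probe, so its ends lie in different exons. 1 of its 3 forward frames is without a stop. The second is a custom probe that carries the RefSeq identifier of P4ha3 in place of the symbol, has no coordinates in the files and meets a stop in all 3 forward frames within the bases shown.

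The symbol-named P4ha3 probe, the only one that the member rule selects, was well above background on 0 of the 6 arrays. Its processed intensities were 1.32, 1.599 and 2.36 in Sham-1 to Sham-3 and 4.01, 2.57 and 2.74 in DJB-1 to DJB-3, and no fold change is given for it. The custom probe was well above background on all 6 arrays. Its processed intensities were 9.53, 30.4 and 26.5 in Sham-1 to Sham-3 and 76.8, 150.3 and 108.4 in DJB-1 to DJB-3. Every DJB array therefore lay above every Sham array, and Sham-1 was the lowest of the 6.

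Levels between arrays were compared as log2 intensity minus the 75th percentile of the array, called scaled log2 below. On that scale the custom P4ha3 probe stood at -3.20 ± 0.94 in Sham (SD, n = 3) and at -0.45 ± 0.59 in DJB (SD, n = 3). The difference was 2.75 with a standard error of 0.52, a ratio of 6.72. It was 3.0 on slide 1, which held Sham-1, Sham-3, DJB-1 and DJB-2, and 2.25 on slide 2, which held Sham-2 and DJB-3. With normexp background correction the difference was 1.30. The gene spans chr7:100285489-100319701 (GRCm38).

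By a rule that ranked 18324 other genes by the root mean square distance between their profile and that of the custom P4ha3 probe over the 6 arrays, each centred on its own mean, the closest was Bst1, which encodes a cell surface enzyme of NAD metabolism, at 0.55. It was followed by the chemokine receptor Cxcr2 at 0.60, the peripheral tryptophan hydroxylase Tph1 at 0.62, the protease inhibitor Serpinb9b at 0.63 and the TNF receptor family member Tnfrsf26 at 0.68. Bst1 read 3.37, 4.25 and 3.50 in Sham-1 to Sham-3 and 5.27, 6.32 and 5.65 in DJB-1 to DJB-3, with DJB-2 the highest array as for P4ha3. Cxcr2 was well above background on 4 of the 6 arrays. Of the other member genes 7 stood between rank 900 (Plod1, at a distance of 1.24) and rank 1451 (Plod3, at 1.29), while Lox stood at rank 10273 and P4ha2 at rank 10300, both at 1.56. The P4ha3 profile holds the difference on which the set was chosen, so these ranks are a description and not a test. A gene's distance depends in part on the size of its own difference between the groups.

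**Figure D1:**
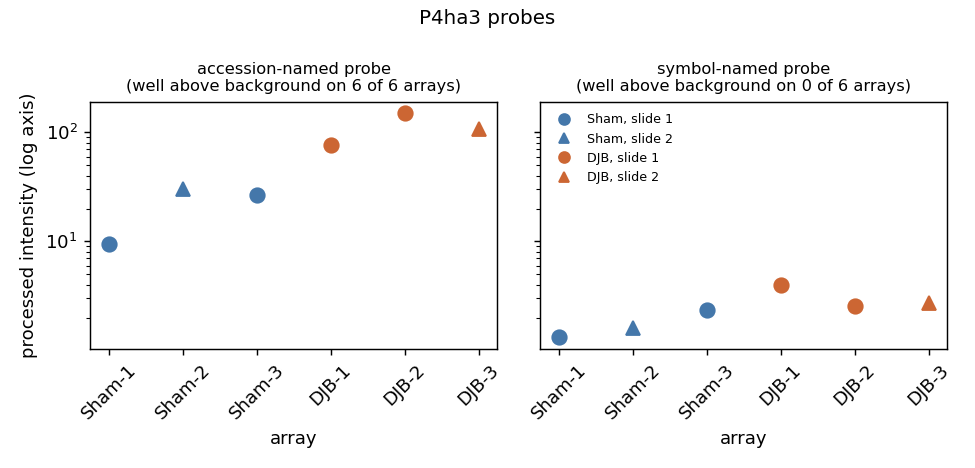
Processed intensity of both P4ha3 probes on each array, on a log axis, with Sham in blue, DJB in orange, circles for slide 1 and triangles for slide 2. The custom probe (accession-named, left) ran from 9.53 to 150.3 and was well above background on 6 of 6 arrays, and the symbol-named probe (right) ran from 1.32 to 4.01 and was so on 0 of 6.

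Among the 12 symbol-named probes of the other 9 genes, all of which could be tested, 2 rose in DJB at an adjusted p under 0.05 and none fell. The ones that rose were the Plod1 probe and 1 of the Plod3 probes (limma, Benjamini-Hochberg over 99431 probes). The same threshold called 1.84% of all tested probes higher and 3.15% lower. The difference was positive for 10 of the 12 probes, under each scaling tried, with a median of 0.48 against 0.08 over all tested probes, of which 58.99% were positive. The 3 DJB arrays lay wholly above the 3 Sham arrays for 9 of the 12 and wholly below for 0, against 21.9% and 14.2% of all tested probes. An unadjusted limma p under 0.05 was reached by 9 of the 12, against 28.2% of all tested probes. Sham-1 was the lowest Sham array for 9 of the 12, and without any 1 of the 6 arrays the count of called probes was 0, with 7 to 9 at an unadjusted p under 0.05. With normexp background correction 5 of the 12 were called, and with slide as a block 0 were, with 8 at an unadjusted p under 0.05. The shares of all tested probes under these alternatives are not given here, so their counts have no background beside them.

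P4ha1, the most widely expressed of the prolyl 4-hydroxylase catalytic subunits (chr10:59323197-59373304, GRCm38), did not pass the test with either symbol-named probe. Its probe A_52_P593723 read 0.09, 0.42 and 0.43 in Sham-1 to Sham-3 and 0.84, 0.79 and 0.89 in DJB-1 to DJB-3 on the scaled log2 scale. The DJB arrays lay above all Sham arrays and closer together than they did, with an SD of 0.05 against 0.20. The difference was 0.53 (SE 0.13, limma adjusted p = 0.07227). The other probe, A_51_P458067, gave 0.48 (SE 0.13, limma adjusted p = 0.0775), again without overlap, and the custom probe gave 0.41 (SE 0.14, limma adjusted p = 0.12). All 3 P4ha1 probes were positive on both slides.

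P4ha2, the isoenzyme subunit with the same reaction (chr11:54100924-54131668, GRCm38), had overlapping groups. Probe A_52_P663413 read 3.32, 3.38 and 3.23 in Sham-1 to Sham-3 and 3.15, 3.27 and 3.18 in DJB-1 to DJB-3. The difference was -0.11 (SE 0.11, limma adjusted p = 0.538). The custom P4ha2 probe read 1.61, 1.62 and 1.49 in Sham and 1.47, 1.61 and 1.54 in DJB, a difference of -0.04 (SE 0.11, limma adjusted p = 0.8524). All arrays of both groups therefore lay within a narrow band for each P4ha2 probe.

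Plod1, a lysyl hydroxylase that acts mainly on lysines of the helical part of collagen (chr4:147909753-147936776, GRCm38), rose in DJB with its symbol-named probe. Its symbol-named probe is shown because it carries one of the called differences, with the first stop triplet of the only forward frame that holds one in capitals. It begins at base 1813 of the transcript, at chr4:147290037-147291457 (mm9, minus strand).
A_51_P320304: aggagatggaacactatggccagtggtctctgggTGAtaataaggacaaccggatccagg
It read 2.17, 2.27 and 2.38 in Sham-1 to Sham-3 and 2.94, 2.76 and 2.96 in DJB-1 to DJB-3. The lowest DJB array lay above the highest Sham array. The difference was 0.61 (SE 0.12, limma adjusted p = 0.04619), a ratio of 1.53, with 0.57 on slide 1 and 0.70 on slide 2. The custom Plod1 probe gave a smaller difference of 0.34 (SE 0.13, limma adjusted p = 0.1477), also without overlap of the groups.

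Plod3, which also carries the glycosyltransferase activity that adds sugars to hydroxylysine (chr5:136987019-136996646, GRCm38), rose with 1 of its probes. Probe A_51_P372172 read 4.47, 4.39 and 4.52 in Sham-1 to Sham-3 and 4.93, 5.04 and 4.94 in DJB-1 to DJB-3. These groups were far apart relative to their SDs of 0.07 and 0.06. The difference was 0.51 (SE 0.10, limma adjusted p = 0.04997), which is just under the threshold. The other probe, A_52_P207278, gave a similar 0.48 (SE 0.11, limma adjusted p = 0.062), and the custom probe gave 0.33 (SE 0.13, limma adjusted p = 0.17). No Plod3 probe had overlapping groups.

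Plod2 hydroxylates lysines in the telopeptides, the sites of the hydroxylysine-derived crosslinks of stiff matrices (chr9:92539636-92608428, GRCm38), and did not pass the test. Probe A_51_P396570 read 1.19, 1.70 and 1.39 in Sham-1 to Sham-3 and 1.85, 2.35 and 2.21 in DJB-1 to DJB-3. The groups did not overlap, but the SD within each was 0.26. The difference was 0.71 (SE 0.19, limma adjusted p = 0.08242), positive on both slides. The custom Plod2 probe carries the identifier of another transcript variant. It read 2.83, 3.21 and 2.997 in Sham-1 to Sham-3 and 3.32, 3.92 and 3.14 in DJB-1 to DJB-3, so that DJB-3 fell within the Sham range. Its difference was 0.44 (SE 0.23, limma adjusted p = 0.2546), with 0.70 on slide 1 and -0.07 on slide 2, and was 0.22 without DJB-2.

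Lox, the founding lysyl oxidase (chr18:52516060-52529867, GRCm38), had overlapping groups and the widest DJB spread among the symbol-named probes that could be tested. Probe A_51_P300493 read 2.76, 3.15 and 3.01 in Sham-1 to Sham-3 and 2.34, 3.32 and 2.73 in DJB-1 to DJB-3. DJB-1 was the lowest and DJB-2 the highest of the 6 arrays. The difference was -0.18 (SE 0.26, limma adjusted p = 0.6903), and without DJB-1 it was 0.05. The custom Lox probe also had DJB-1 lowest, at 3.92, and DJB-2 highest, at 4.97, with a difference of -0.19 (SE 0.28, limma adjusted p = 0.69).

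Loxl1, needed for elastic fibre upkeep (chr9:58287723-58313212, GRCm38), read 5.22, 5.76 and 5.72 in Sham-1 to Sham-3 and 6.05, 5.95 and 5.95 in DJB-1 to DJB-3 with probe A_51_P304239. All DJB arrays lay above Sham, and Sham-1 lay well below the other Sham arrays. The difference was 0.41 (SE 0.17, limma adjusted p = 0.1767), and the custom Loxl1 probe gave 0.59 (SE 0.21, limma adjusted p = 0.1415). Without Sham-1 these differences were 0.24 and 0.36.

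Loxl2, which crosslinks basement membrane collagen (chr14:69608692-69695834, GRCm38), was measured by a pair of symbol-named probes. Probe A_51_P275949 read 1.21, 2.01 and 1.67 in Sham-1 to Sham-3 and 2.57, 2.47 and 2.02 in DJB-1 to DJB-3. DJB-3 barely exceeded Sham-2, the Sham array on its own slide. The difference was 0.73 (SE 0.25, limma adjusted p = 0.1276), with 1.08 on slide 1 and 0.01 on slide 2. Probe A_52_P480351 gave 0.46 (SE 0.21, limma adjusted p = 0.2096), with 0.65 on slide 1 and 0.06 on slide 2, and its groups overlapped. Without Sham-1 the latter was 0.29.

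Loxl3, a further amine oxidase of the family (chr6:83034205-83052566, GRCm38), read -0.58, -0.26 and -0.25 in Sham-1 to Sham-3 and 0.09, 0.23 and 0.01 in DJB-1 to DJB-3 with probe A_52_P219233. Here every DJB array lay above every Sham array. The difference was 0.47 (SE 0.14, limma adjusted p = 0.09593), and the custom Loxl3 probe gave 0.42 (SE 0.16, limma adjusted p = 0.1518), which was 0.26 without Sham-1 and 0.25 with normexp background correction.

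**Figure D2:**
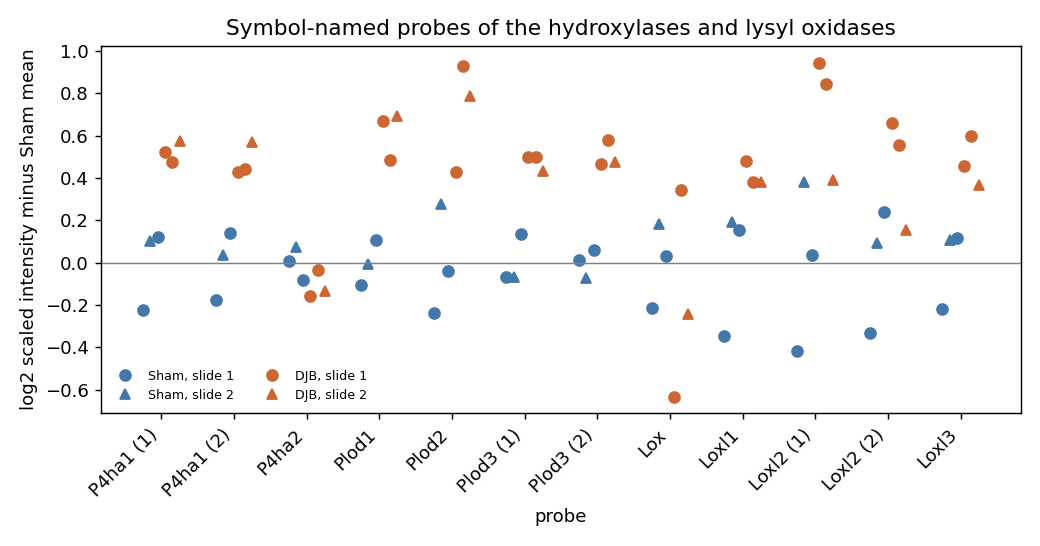
Scaled log2 level of each symbol-named probe outside P4ha3, centred on its Sham mean, with a point for each array, Sham in blue, DJB in orange, circles for slide 1 and triangles for slide 2. The groups do not overlap for 9 of the 12 probes, and they overlap for P4ha2, Lox and the second Loxl2 probe.

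The custom probes gave a second reading of the same genes, with Loxl2 having none. Of the 8 custom probes outside P4ha3, 0 were called by limma, with 5 at an unadjusted p under 0.05, and 6 had a positive difference. Over all tested probes, 1.84% were called higher, 28.2% reached that unadjusted p and 58.99% were positive. The median of the 8 was 0.38, and for 5 of them the DJB arrays lay wholly above the Sham arrays, as for 21.9% of all tested probes. The sign of the difference was the same with symbol-named and custom probes in each of the 8 genes outside P4ha3 that had both, negative in P4ha2 and Lox and positive in the other 6, except that the custom P4ha2 probe was at 0.07 under median scaling and both Lox probes were positive without DJB-1.

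A further group of custom probes is named by genomic intervals that lie inside a member gene on its strand, 11 probes in 4 genes, of which 10 could be tested. Circular RNAs are often named in this way, but no column of the files says what class of RNA these probes read. Of the 10 probes 1 rose at an adjusted p under 0.05, against 2.77% called higher of 31952 interval-named probes tested, and 9 were positive with a median of 0.37 against 0.15. With normexp background correction 4 of the 10 were called, and without any 1 of the 6 arrays 0 were, with 4 to 6 then at an unadjusted limma p under 0.05. On all 6 arrays 6 of the 10 reached that p. Over all tested probes 28.2% did, and 58.99% were positive. The shares of all probes called with normexp background correction or without an array are not given here.

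P4ha1 held 6 of these interval probes, with differences between 0.31 and 0.61. The called one lies at chr10:59355350-59369683 and read -0.72, -0.70 and -0.58 in Sham-1 to Sham-3 and -0.10, -0.12 and 0.06 in DJB-1 to DJB-3. Its difference was 0.61 (SE 0.11, limma adjusted p = 0.04199). The DJB arrays lay wholly above the Sham arrays for 5 of the 6, against 21.9% of all tested probes. Several of the intervals share a boundary, so their probes may read overlapping RNA.

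P4ha2 held 3 interval probes with differences of 0.46, 0.17 and 0.28, none called, where its symbol-named and custom probes were at -0.11 and -0.04. The single Plod1 interval probe read -1.92, -1.25 and -1.53 in Sham-1 to Sham-3 and -2.14, -2.21 and -0.83 in DJB-1 to DJB-3. Its difference was -0.16 (SE 0.40, limma adjusted p = 0.8215), with -0.45 on slide 1 and 0.42 on slide 2, and with normexp background correction it was 0.03. The Plod2 interval probe was well above background on 0 of the 6 arrays, and P4ha3 held no interval probe.

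**Figure D3:**
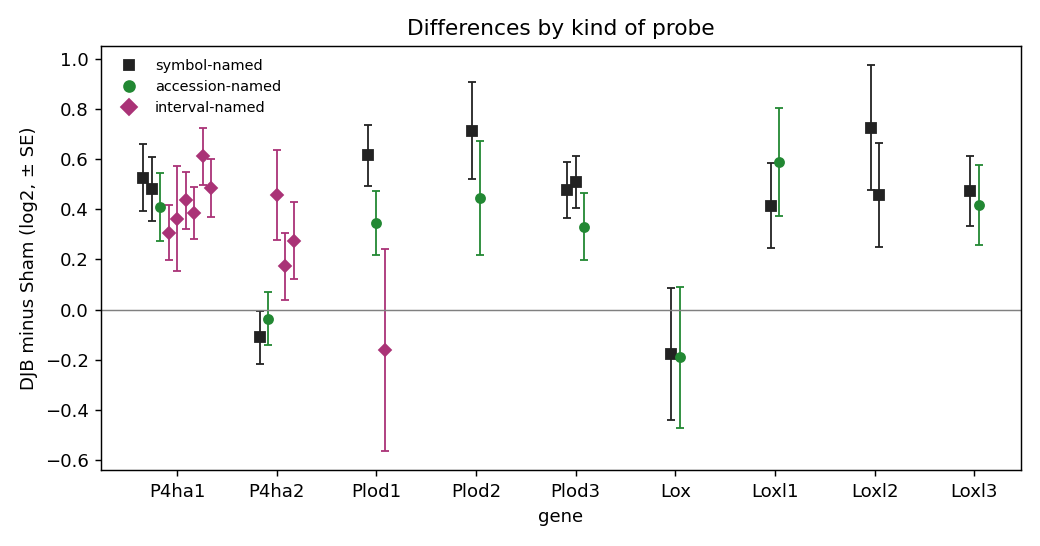
Difference between DJB and Sham in scaled log2 for every tested probe of the 9 genes outside P4ha3, with bars of 1 standard error: symbol-named probes as black squares, custom probes with a RefSeq identifier (accession-named) as green circles and interval-named probes as purple diamonds. P4ha2 lies below 0 with its symbol-named and custom probes and above 0 with its 3 interval probes.

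Ratios of isoenzymes within an array do not depend on the scaling between arrays. After the values had been seen, 10 pairs of isoenzymes were formed within the families, each gene taken as its symbol-named probe with the highest mean, and each ratio centred on its Sham mean. The P4ha1 over P4ha2 log2 ratio ran from -0.18 to 0.22 in Sham and from 0.48 to 0.70 in DJB. That shift was 0.59, larger than the SDs of 0.20 in Sham and 0.11 in DJB, with a two-sided exact permutation p of 0.10, the smallest that 3 against 3 allows, and 0.333 after adjustment over 10 pairs.

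The ratios of Lox to its relatives had negative shifts. With 3 against 3 the exact permutation p cannot go below 0.10, so no pair could reach an adjusted p under 0.05. The Lox over Loxl3 ratio shifted by -0.65 and the Lox over Loxl2 ratio by -0.63, both with an exact permutation p of 0.10 (0.333 adjusted). The groups of the latter barely separated, with -0.211 as the highest DJB value and -0.205 as the lowest Sham value. Lox over Loxl1 shifted by -0.59 with overlapping groups (exact permutation p = 0.20, 0.5 adjusted). Without DJB-1 these shifts were -0.43 for Lox over Loxl3, -0.30 for Lox over Loxl2 and -0.33 for Lox over Loxl1. The other 6 pairs, among the Plod genes and among Loxl1, Loxl2 and Loxl3, shifted by -0.10 to 0.21 with overlapping groups.

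**Figure D4:**
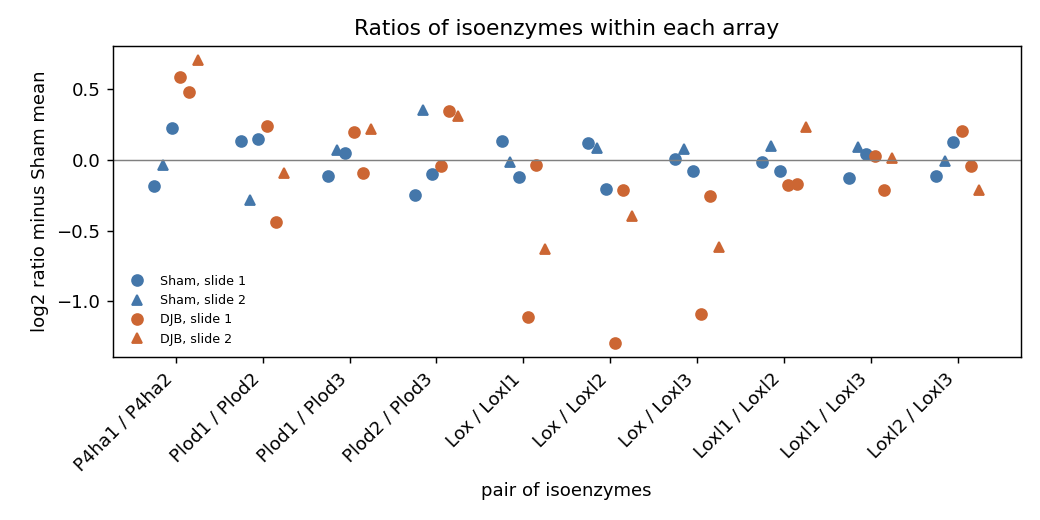
Log2 ratio of 2 isoenzymes within each array, centred on the Sham mean, for 10 pairs, with Sham in blue, DJB in orange, circles for slide 1 and triangles for slide 2. The groups do not overlap for P4ha1 over P4ha2, Lox over Loxl2 and Lox over Loxl3, and the lowest point of each Lox pair is DJB-1.

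The other genes of the pathway were read from a list of 54, of which 53 could be tested and Tll2 could not. Each gene was represented by its tested probe with the highest mean over the 6 arrays. By limma, 7 of the 53 fell at an adjusted p under 0.05 and 0 rose, with 24 at an unadjusted p under 0.05. Over 18325 genes, 6.1% fell and 1.4% rose, and 28.2% of all tested probes reached that unadjusted p. The median difference of the list was 0.17 and that of all genes 0.00, with 32 of the 53 positive, against 58.99% of all tested probes. When the mean of all tested probes stood for a gene, 3 rose and 9 fell. With slide as a block limma called 0, with 23 at an unadjusted p under 0.05. Without 1 array the calls numbered 0 to 4, with 0 without Sham-1, Sham-2, DJB-1 or DJB-2. The share of all genes called under these alternatives is not given here.

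Of the partners of the prolyl hydroxylases and the prolyl 3-hydroxylation group, 0 of 7 passed the limma test, with 2 at an unadjusted p under 0.05. That unadjusted p was reached by 28.2% of all tested probes. P4hb, the shared beta subunit, gave 0.29 (SE 0.14, limma adjusted p = 0.2458). P3h3, a prolyl 3-hydroxylase, gave the largest difference of the group at 0.38, and P3h2, another, the smallest at -0.66 (SE 0.15, limma adjusted p = 0.06147), which with normexp background correction was -0.38 and called. The other tested P3h2 probe gave -0.2. Colgalt2, which attaches galactose to hydroxylysine, fell by 1.37 (SE 0.17, limma adjusted p = 0.02285), but with normexp background correction its difference was -0.25 and was not called. Its relative Colgalt1 gave 0.46 (SE 0.19, limma adjusted p = 0.1776), and 0.28 without DJB-1. Among the 3 collagen chaperones, Fkbp10 gave 0.28 and Sparc gave -0.41. Serpinh1, the collagen-specific chaperone of the endoplasmic reticulum, gave -0.27, and its other tested probe gave -0.81. By the probe that stood for each gene, none of the 3 was called by limma and 1 was at an unadjusted p under 0.05. Sparc was called at -0.43 with normexp background correction, at -0.67 with quantile normalization and at -0.67 in the deposited table.

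Of the 7 tested genes that act in procollagen trimming, 4 had a positive difference and 1 fell at an adjusted p under 0.05. Over 18325 genes, 6.1% fell by limma. Pcolce2, an enhancer of procollagen C-proteinase, fell by 1.08 (SE 0.21, limma adjusted p = 0.04616). Its relative Pcolce gave 0.43 (SE 0.17, limma adjusted p = 0.1668). Bmp1, the C-proteinase itself, gave 0.48 (SE 0.18, limma adjusted p = 0.1451), and 0.30 without Sham-1. The other crosslinking enzymes Loxl4 and Tgm2 gave -0.34 and -0.22, neither called. The second Loxl4 probe gave -0.69, and without DJB-1 the first was at -0.09. For Tgm2 the difference ran from -0.36 in the deposited table to -0.11 under median scaling.

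The substrates, collagen chains with elastin and fibrillin, had a positive difference in 11 of 12, with a median of 0.34, and 0 of 12 rose at an adjusted p under 0.05 by limma. The median over all genes was 0.00, and 58.99% of all tested probes were positive. Col5a2, a chain of a fibril-regulating collagen, gave the largest value of 0.78 (SE 0.20, limma adjusted p = 0.07749), and Col1a1, a chain of the main fibrillar collagen, gave 0.64 (SE 0.19, limma adjusted p = 0.09599). Eln, which encodes elastin, fell by 1.06 (SE 0.19, limma adjusted p = 0.04014), and its other tested probe gave a smaller difference of -0.475. By the probe that stood for each gene, Eln was the only one of the 12 with a negative difference. For Col4a1 that probe gave 0.21, and the tested probes of the gene ran from -0.27 to 0.21.

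In the fibril and elastic fibre assembly group, Fmod, a small proteoglycan that binds collagen fibrils, fell by 1.52 (SE 0.28, limma adjusted p = 0.04249), and Postn, a matrix protein that binds collagen and Bmp1, gave the largest difference of 1.08 (SE 0.25, limma adjusted p = 0.06396). Of the upstream regulators and related dioxygenases, Tgfb3, a growth factor that induces matrix genes, fell by 0.83 (SE 0.14, limma adjusted p = 0.03612), while Tgfb1 gave 0.74 (SE 0.19, limma adjusted p = 0.07287). Egln3, a prolyl hydroxylase of hypoxia-inducible factors, fell by 1.37 (SE 0.27, limma adjusted p = 0.0462), or by 0.79 with normexp background correction, and Ccn2, a matricellular protein, gave the largest difference of the group at 0.96 (SE 0.40, limma adjusted p = 0.1777; 0.6 without DJB-2). Ascorbate is a cofactor of the hydroxylases. Its transporter gene Slc23a1 fell by 0.995 (SE 0.18, limma adjusted p = 0.04239), but with normexp background correction its difference was -0.22 and was not called. The other transporter gene, Slc23a2, gave 0.67 (SE 0.18, limma adjusted p = 0.07836).

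**Figure D5:**
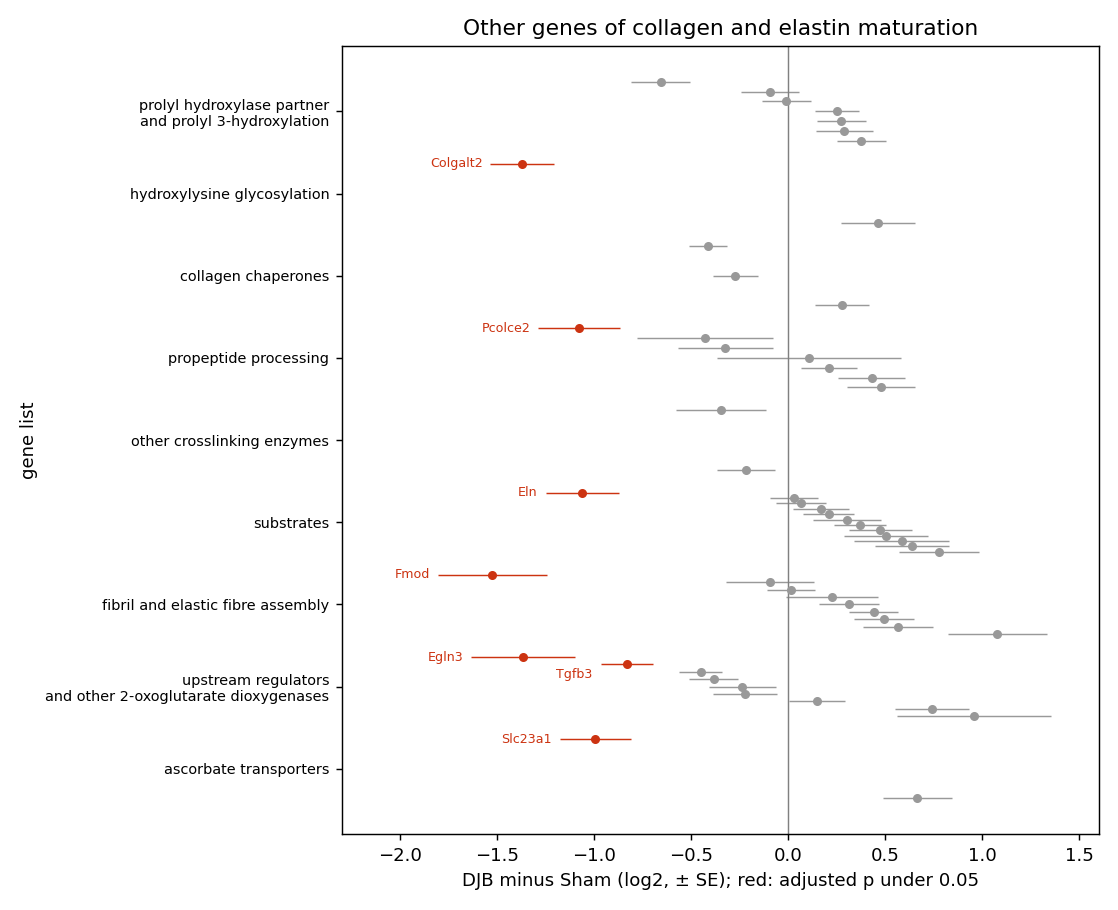
Difference between DJB and Sham in scaled log2 for the 53 tested pathway genes by list, with bars of 1 standard error. The 7 genes in red and named fell at an adjusted p under 0.05, with differences from -1.52 to -0.83, and the grey genes did not pass.

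Markers of other cells moved between the same arrays. A gene's lower level in a piece of tissue cannot be told apart from fewer cells that express it. All 8 adipocyte markers were detected on all 6 arrays, which fits the labelled tissue. The sum of their levels relative to the array's 75th percentile was 3626 to 4134 in Sham and 2132 to 3377 in DJB. Their median difference was -0.98, with 1 of the 8 positive and 0 called by limma. The 6 macrophage markers were all positive, 2 of them called higher, with sums of 746.8 to 1002 in Sham and 1253 to 1517 in DJB. Over all 18325 genes, 1.4% were called higher. The 10 fibroblast and progenitor markers had a median difference of 0.03, 0 were called by limma, and their sums were 1324 to 1621 in Sham and 1598 to 1655 in DJB.

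The 6 smooth muscle and pericyte markers had 4 called lower, with sums of 295.1 to 444.7 in Sham and 96.0 to 129.2 in DJB. Over all 18325 genes, 6.1% were called lower. The 6 mesothelial markers had 1 called lower and summed to 105.4 to 145.1 in Sham and 23.4 to 60.6 in DJB, and the 5 endothelial markers had 1 called lower and summed to 163.0 to 189.9 and 81.0 to 148.3. Of the 5 skeletal muscle markers 4 could be tested, of which 2 were called lower and 2 had a positive difference, with sums of 28.6 to 87.9 and 3.54 to 6.56, and the 4 liver markers had 2 called lower and 2 with a positive difference, with sums of 1.80 to 4.35 and 0.52 to 0.72. The part of these cell types in the differences of the hydroxylases, oxidases and pathway genes was not tested.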

How the data were processed

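Agilent 1-colour arrays of total RNA from 6 samples were used. Per the file headers, the authors quantified them with Agilent Feature Extraction 12.0.3.1, whose deposited processed intensity per spot is background-subtracted and not scaled between arrays, and the header build is mm9. The deposited table of log2 values, whose normalization is not stated, was an alternative. The submitters' processing notes name limma, with neither version nor role. The design text of the series describes another experiment and was not used.

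The log2 of the processed intensity minus the array's 75th percentile over non-control probes was compared between groups with limma 3.58.1 in R 4.3.3 (lmFit and eBayes, two-sided), and p-values were adjusted by Benjamini-Hochberg over 99431 probes. Outlier-flagged spots (18 to 25 an array) were treated as missing. Tests covered the probes that Feature Extraction marked as well above background on 3 or more of the 6 arrays. The fit was tested on simulated data. Tables and figures used Python 3.11.15 and pandas 2.3.3. The number of arrays limits the precision.

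Custom probes were assigned through their RefSeq identifiers, an alternative added after the data had been seen. Interval coordinates carry no build: as named, 98.17% of the 37852 fell within GRCm38 genes, and 43.42% did after a move of 500000 bases, so they were read as GRCm38. The members, gene lists and tests were chosen with earlier results of these data known. Named were all members, pathway genes past an adjusted p of 0.05, the largest and smallest difference of each list, and the 5 genes closest to P4ha3 in profile. P4hb, Serpinh1, Pcolce, Col1a1, Col4a1 and Tgfb1 were named in addition after their values were seen. Alternatives were normexp correction (offset 50), other scalings and filters, a trended robust prior, slide and replicate blocks, the mean over a gene's probes and leaving out each array.

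Same-numbered arrays did not deviate together (correlations of deviations from the group means of -0.18, -0.12 and -0.29), so the numbers were not taken as pairs.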

Additional observations from a re-analysis of the deposited data

How the results depend on the processing

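The 12 symbol-named probes outside P4ha3 gave 2 calls, against 5 with normexp correction, 6 with a trended robust prior, 1 each with median scaling, quantile normalization and the deposited table, and 0 without the filter on dim probes or with slide as a block. The 10 interval probes gave 1 call, against 4 with normexp correction, 3 with the trended prior, 2 where all 6 arrays had to be above background, and 0 without the filter or with the slide block. The 53 pathway genes gave 7 calls, all lower, against 12 with normexp correction (3 higher, 9 lower), 12 with the mean over probes (3 higher, 9 lower), 16 with the trended prior (6 higher, 10 lower), 2 with median scaling, and 0 without the filter or with the slide block. Without each array in turn, the calls were 0 to 0 for the symbol-named probes, 0 to 0 for the interval probes and 0 to 4 for the pathway genes (4 without DJB-3, 2 without Sham-3 and 0 without each of the other 4). With the replicate block, limma called 0 of the 12 symbol-named probes (8 at an unadjusted p under 0.05), 0 of the 10 interval probes (4) and 0 of the 53 pathway genes (20). The 8 custom probes outside P4ha3 gave 0 calls under every setting, with 0 to 6 at an unadjusted p under 0.05. The custom P4ha3 probe was at 1.30 with normexp correction and from 2.22 to 3.08 without each array in turn. The sign turned for the Lox probe A_51_P300493 (0.049 without DJB-1, the highest without any 1 array, and -0.439 without DJB-2, the lowest) and the custom Lox probe (0.018 without DJB-1 and -0.506 without DJB-2), for the custom P4ha2 probe with median scaling (0.07), and for the Plod1 interval probe with normexp correction (0.027), without DJB-1 (0.046) and without DJB-2 (0.078, the highest without any 1 array, with -0.61 without DJB-3 the lowest). Of 784 single probe or gene values under 16 alternatives, 655 kept their direction and side of the threshold, 95 lost a call, 28 gained one and 6 changed sign. Only the 2 symbol-named probes, 1 interval probe and 7 pathway genes called in the main fit had a call to lose. The 95 lost calls are therefore to be read against the values of these alone. Median scaling moved the median of all probes to 0.19 from 0.08. The cause of these changes was not tested. The share of all probes or genes called under each alternative is not given here. A change in the counts of calls therefore cannot be told apart from a change over the whole array. Probes near background, such as the symbol-named P4ha3 probe, allow no statement about a difference.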
